A study of Mus musculus with 5 samples.

Results

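Lysosomes are the acidic compartments in which macrophages break down what they engulf. They hold soluble hydrolases, each specific for a kind of bond (sugar chains of glycosaminoglycans and glycoproteins, sphingolipids, sterol esters, peptides, DNA), cofactors that present lipids to those enzymes, and a limiting membrane of heavily glycosylated proteins. Many of these genes are activated together by the transcription factors TFEB and TFE3, which bind a palindromic promoter motif known as the CLEAR element, and inherited loss of single members causes lysosomal storage diseases. The genes described here are 40 such genes, fixed by symbol: 33 hydrolases, hydrolase cofactors and soluble lysosomal proteins, sorted by the substrate they act on (the sterol carrier Npc1, itself a membrane protein, is kept with its soluble partner Npc2), and 7 other membrane proteins. All 40 were found among 20583 gene symbols of the count table, all 40 passed the filter on low counts, and each is represented by its transcript row with the highest mean count.

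The libraries are from mouse bone marrow-derived macrophages, the phagocytes that grow out when marrow cells are cultured with the growth factor M-CSF (25 ng/ml for 7 days). NICcA mice gave 2 libraries, numbered 2 and 3, and wild type mice gave 3, numbered 1 to 3. Both genotypes were on a C57BL/6 background, aged 7 to 8 weeks. NICcA is not spelled out in the labels; the name has been used for mice that conditionally express the intracellular, active part of a Notch receptor, and neither the cassette nor its driver is given in the sources used here. Whether each library is its own animal or culture is not stated, and the p-values therefore reflect library-to-library spread, which could be technical. In bulk RNA, fewer cells of a type and less RNA per cell cannot be told apart.

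Total counts over all transcript rows were between 57442309 and 76562905 per library. Hes1, a repressor induced directly by Notch signalling, was at 2.77 and 1.73 CPM (counts per 1000000, after scaling between libraries) in the NICcA libraries and at 0.0174, 0.0682 and 0.0911 CPM in the wild type libraries (edgeR adjusted p = 0.13; DESeq2 adjusted p = 1.06e-11). Notch1, a Notch receptor, was at 84.2 and 87.6 CPM in NICcA and at 78.5, 68.1 and 67.4 CPM in wild type (edgeR adjusted p = 0.34). The macrophage markers Csf1r, Emr1, Cd14, Fcgr1, Itgam, Lyz2 and Mertk were found in every library. Their log2 fold changes had a median of 0.16 and were positive for 4 of 7, Fcgr1 being at 0.91 (edgeR adjusted p = 0.29; DESeq2 adjusted p = 0.041). Their summed level ran the other way, at 11646 to 12222 CPM in NICcA and 13467 to 19744 CPM in wild type, and was mostly Lyz2, whose log2 fold change was -0.55. NICcA replicate 2 stood apart for inflammatory genes. Relative to the mean of the wild type libraries, 12 genes of classical activation had a median log2 difference of 4.78 there. The median was 0.42 in NICcA replicate 3 and -0.18, 0.58 and -0.55 in wild type replicates 1, 2 and 3. Wild type replicate 2 thus lay above NICcA replicate 3. Single genes of that list differed in NICcA replicate 3, with Il12a at 5.59, Il12b at 2.58, Il1b at 2.33 and Cd86 at 0.98. Others lay below the wild type mean there, with Il6 at -1.33, Ptgs2 at -0.94 and Nos2 at -0.54. Both NICcA libraries lay above all wild type libraries for 6 of the 12, where 18.3% of all genes tested did so. DESeq2 called 5 of the 12 higher, where it called 2.09% of all genes higher. Wild type replicate 1 stood apart for fibroblast collagens, with 116 counts of Col1a1, 311 of Col1a2 and 419 of Col3a1, where no other library had more than 15 counts of any of them.

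Promoters of 36 of the 40 genes were found in RefSeq's table for build GRCm38.p6 (38 sequences of 300 bases, running from 250 bases before the annotated start to 50 bases after it). The E-box core CACGTG, on either strand, was in 9 of these 38 sequences (23.7%) and in 7.15% of all 32851 promoters of the same length. The longer palindrome TCACGTGA, which forms the middle of the CLEAR element and contains that core, was in 3 of 38 (7.89%), those of Gla, Ctsa and Mcoln1, and in 0.974% of all promoters. TGGGAA, the core of the motif of Rbpj, the DNA-binding partner of Notch, was in 5 of 38 (13.2%) and in 25.6% of all promoters, on either strand. The promoters below are those with the longer palindrome and that of Lamp1, which has the most E-box cores. They are written 5′ to 3′ on the strand of the gene, with each palindrome, or E-box core outside one, in capitals.
Gla, chrX:134600956-134601255, minus strand: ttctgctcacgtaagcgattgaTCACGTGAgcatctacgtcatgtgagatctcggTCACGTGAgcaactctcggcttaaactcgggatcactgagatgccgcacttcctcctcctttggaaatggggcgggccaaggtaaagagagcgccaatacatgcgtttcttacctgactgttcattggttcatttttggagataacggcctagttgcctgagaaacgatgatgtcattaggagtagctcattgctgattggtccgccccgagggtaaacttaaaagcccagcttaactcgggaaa
Ctsa, chr2:164833523-164833822, plus strand: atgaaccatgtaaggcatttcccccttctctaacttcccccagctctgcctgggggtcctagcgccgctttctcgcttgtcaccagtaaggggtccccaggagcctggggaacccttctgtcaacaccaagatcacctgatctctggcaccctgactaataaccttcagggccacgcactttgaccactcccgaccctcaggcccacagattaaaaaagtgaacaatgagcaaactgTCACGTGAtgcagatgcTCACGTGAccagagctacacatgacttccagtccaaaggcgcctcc
Mcoln1, chr8:3500269-3500568, plus strand: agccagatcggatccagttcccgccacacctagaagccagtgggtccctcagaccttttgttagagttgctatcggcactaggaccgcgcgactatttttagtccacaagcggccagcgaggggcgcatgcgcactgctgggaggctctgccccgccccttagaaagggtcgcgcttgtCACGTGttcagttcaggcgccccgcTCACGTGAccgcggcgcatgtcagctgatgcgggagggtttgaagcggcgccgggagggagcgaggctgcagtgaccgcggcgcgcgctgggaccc
Lamp1, chr8:13158911-13159210, plus strand: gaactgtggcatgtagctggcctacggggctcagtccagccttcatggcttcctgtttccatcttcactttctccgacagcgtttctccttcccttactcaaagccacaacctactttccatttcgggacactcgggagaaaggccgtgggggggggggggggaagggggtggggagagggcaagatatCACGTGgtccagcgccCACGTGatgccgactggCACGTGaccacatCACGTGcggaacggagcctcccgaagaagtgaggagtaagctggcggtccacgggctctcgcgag

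In the Lamp1 promoter the 4 cores begin 61, 45, 28 and 15 bases before the annotated start. In the Ctsa promoter 1 core begins 12 bases before the start and the other 5 bases after it, while the cores of the Gla promoter begin far upstream, at 227 and 194 bases before the start. All 4 of these lie within the longer palindrome. In the Mcoln1 promoter the cores begin 71 and 45 bases before the start, and only the one nearer to the start lies within it. A match of letters is a description of the sequence and shows no binding. The 9 genes with an E-box core (Arsa, Ctsa, Gaa, Gla, Glb1, Lamp1, Mcoln1, Naglu and Sgsh) had a median log2 fold change, NICcA over wild type, of -0.29, and the 27 other genes with a promoter in the table had one of -0.27.

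Transcript levels, compared between genes in RPKM (reads per kilobase of transcript scaled to the reads of the library, the authors' values), spanned several orders of magnitude. Psap, the precursor of the saposins that lift sphingolipids towards their hydrolases, was the most abundant gene of the 40 and ranked 8 among all genes in wild type, at 2699 ± 127 RPKM in NICcA and 3536 ± 202 RPKM in wild type (mean ± SD, n = 2 NICcA and n = 3 wild type libraries, here and throughout). Gpnmb, a membrane glycoprotein of lipid-laden macrophages, and Lamp1, a main glycoprotein of the lysosomal membrane, came next, with 596 ± 37.2 and 365 ± 6.61 RPKM in NICcA, and 891 ± 218 and 444 ± 31.9 RPKM in wild type. At the other end stood Arsb and Sgsh, enzymes of glycosaminoglycan breakdown, with 1.49 ± 0.0628 and 2.58 ± 0.436 RPKM in NICcA, and 1.38 ± 0.175 and 2.54 ± 0.294 RPKM in wild type. The number of these genes above 100 RPKM was 12 in NICcA and 13 in wild type, Lipa being the gene between, and 8 were below 10 RPKM in wild type.

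**Figure D1:**
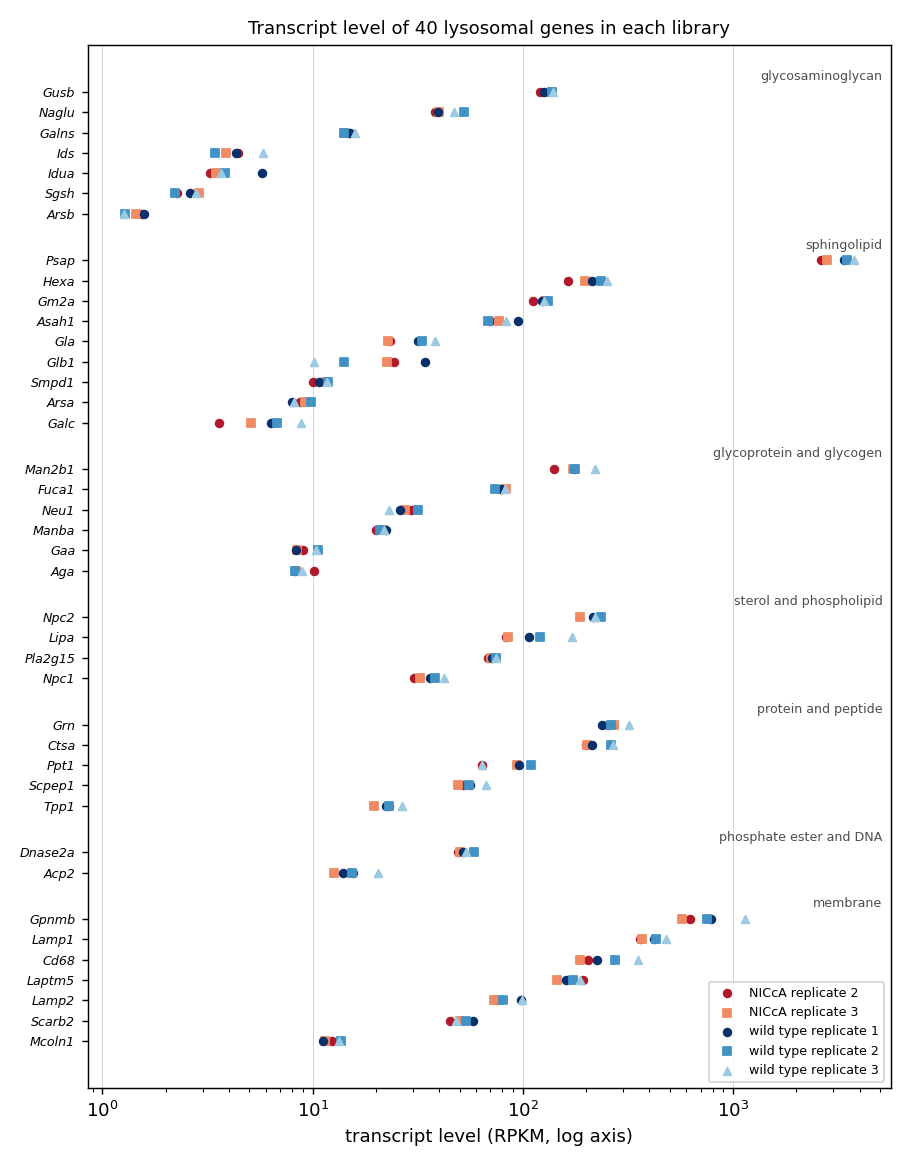
Transcript level of the 40 lysosomal genes in RPKM (log axis), grouped by substrate, with 1 point per library: NICcA in red and orange, wild type in blues. Psap lies alone at the top of the scale (2699 RPKM in NICcA and 3536 in wild type on average) and Arsb at the bottom (1.49 and 1.38).

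As a group these genes had lower values in NICcA macrophages by small amounts, and none of them passed the test. The fitted log2 fold change was negative for 37 of 40 genes, where 49.5% of the 13341 genes tested had a negative one. Without scaling factors the number was 33, where 35.5% of all genes tested had a negative one. Fuca1, Neu1, Arsa and Sgsh then had positive values. The median log2 fold change was -0.27, against 0.0028 over all genes tested, and the range ran from -0.87 (Galc) to 0.17 (Glb1). Without scaling factors the medians were -0.16 and 0.11, and the distance between them was -0.27 with scaling and without. Scaling factors move all genes by nearly the same amount, so an unchanged distance is no check on the scaling. Of the 40 genes, 7 had a log2 fold change below -0.5, namely Galc, Lipa, Gpnmb, Gla, Cd68, Psap and Idua, and 14 lay within 0.2 of 0.

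**Figure D2:**
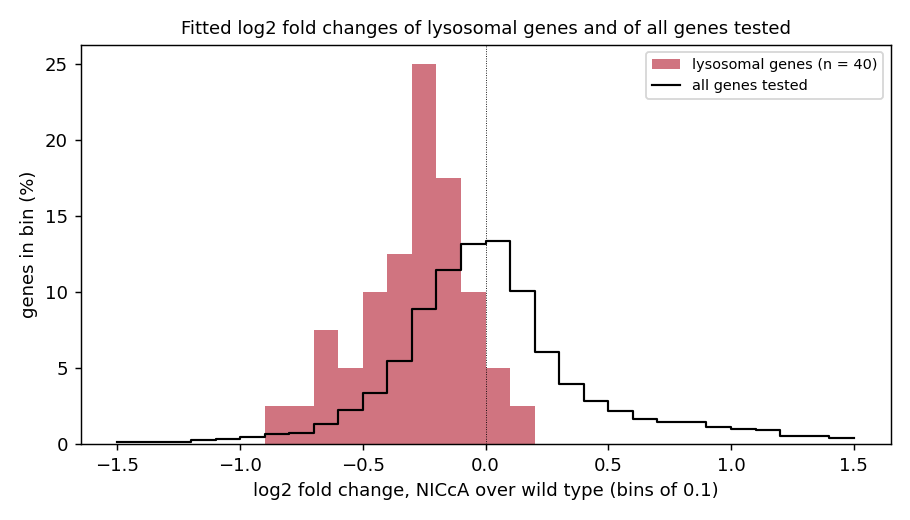
Share of genes, in percent, by log2 fold change (NICcA over wild type, bins of 0.1) for the 40 lysosomal genes (bars) and for all 13341 genes tested (black line; 471 of them lie beyond the axis). The bars are centred left of 0, with a median of -0.27 against 0.0028 for all genes.

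By the quasi-likelihood test of edgeR, adjusted after Benjamini and Hochberg over all rows tested, 0 of 40 genes passed an adjusted p of 0.05, where 0.03% of all genes tested did in either direction. The adjusted p of the 40 genes ranged upward from 0.27. At an unadjusted p below 0.05 there were 13 genes, each lower in NICcA, where 6.83% of all genes tested were lower and 7.68% higher at that p. This number was 7 without wild type replicate 2, 16 without wild type replicate 1, 9 without scaling factors and 6 with limma on either form of log2 RPKM. The share of all genes at that p in each of these fits is not given here, so the counts cannot be set against it. A fit without a NICcA library leaves that group with a lone library, and no count is given for it. DESeq2 called 4 genes lower in NICcA (Gla, Psap, Galc and Lipa), where it called 1.94% of all genes lower and 2.09% higher, and limma-voom called 0. Both NICcA libraries lay below all 3 wild type libraries for 23 of 40 genes, where 18.5% of all genes tested did so, and both lay above for 0, where 18.3% of all genes did. Without scaling factors they lay below for 16 genes, where 8.95% of all genes tested did so. Overlap is read in scaled CPM here and below. In RPKM, which lack that scaling, the groups overlapped for Gm2a, Naglu, Galns, Manba, Npc2, Tpp1 and Scarb2.

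The shift was of the same size in both NICcA libraries. Relative to the mean of the wild type libraries, the 40 genes had a median log2 difference of -0.28 and -0.29 in the NICcA libraries and of -0.12, -0.017 and 0.11 in the wild type libraries. Wild type replicate 1, the library with the collagen counts, thus lay nearest to the NICcA libraries. Without it, 38 of 40 genes had a negative log2 fold change and the median was -0.29. Both NICcA libraries then lay below the other wild type libraries for 29 genes and above them for 2. Over all genes tested, 24.5% then lay below, against 18.5% with all 5 libraries. Without NICcA replicate 2, the library with the highest activation genes, 38 had a negative log2 fold change and the median was -0.31. NICcA replicate 3 lay below all wild type libraries for 28 of the 40, where 27.5% of all genes tested did so. The part of either library's other genes in the lysosomal values was not tested. NICcA replicate 2 was lower than the lowest wild type library for 29 genes. With NICcA replicate 3 left out, 32.7% of all genes tested were so. Wild type replicate 3 had the highest value of all 5 libraries for 24 genes. The 40 genes together took 2.90% and 3.07% of the counts in the NICcA libraries and 3.60%, 3.68% and 4.22% in the wild type libraries, Psap alone taking 1.19% and 1.31% in NICcA and 1.59%, 1.62% and 1.76% in wild type.

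**Figure D3:**
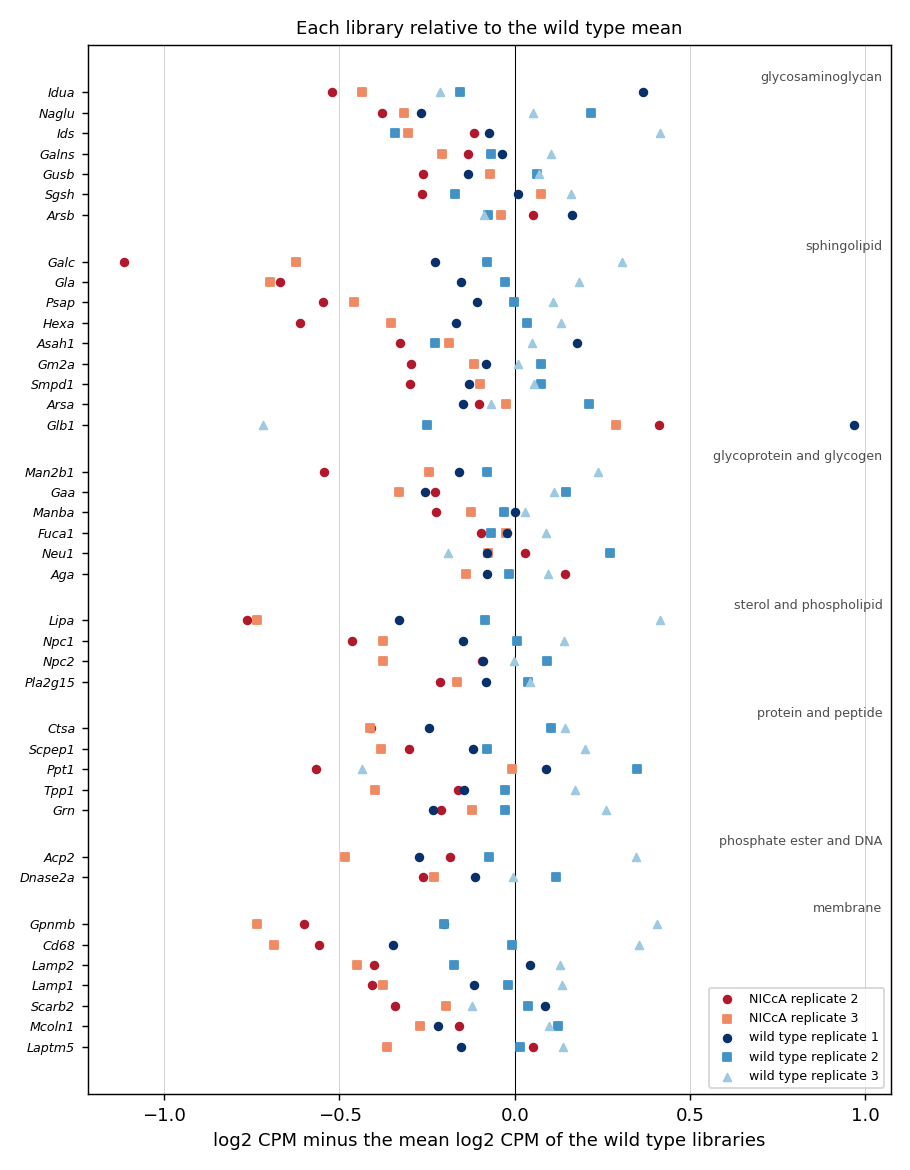
Difference of each library from the mean log2 CPM of the wild type libraries, per gene and grouped by substrate (NICcA in red and orange, wild type in blues). The NICcA points lie left of 0 for most genes (35 of 40 in replicate 2 and 38 of 40 in replicate 3), and Glb1 has its wild type points spread farthest, from -0.72 to 0.97.

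Sphingolipid breakdown held the genes with the smallest p. Gla, the alpha-galactosidase that trims globosides and is deficient in Fabry disease, was at 82.9 and 81.2 CPM in the NICcA libraries and at 118, 129 and 149.5 CPM in the wild type libraries. The groups did not overlap, and both NICcA libraries were nearly equal. Its log2 fold change was -0.69 (SE 0.13, edgeR adjusted p = 0.27), and its DESeq2 adjusted p of 0.0012 was the lowest of a range that reached 0.90 over the alternative fits. Galc, the galactosylceramidase of Krabbe disease, was at 15.7 and 22.0 CPM in NICcA and at 29.0, 32.1 and 42.0 CPM in wild type, again without overlap. This was the most negative fold change of the 40 genes, at -0.87 on the log2 scale (SE 0.22, edgeR adjusted p = 0.28). Its DESeq2 adjusted p was 0.020, in a range from 0.020 to 0.90 over the alternative fits.

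Psap was at 8156 and 8683 CPM in NICcA and at 11067, 11895 and 12870 CPM in wild type. The log2 fold change was -0.50 (SE 0.16, edgeR adjusted p = 0.31), with no overlap between the groups. Its DESeq2 adjusted p was 0.0049, in a range from 0.0049 to 0.90 over the alternative fits. Its 6 transcript rows share most of their reads, each carrying at least 94.6% of the count of the top row, and are not independent measurements. Hexa, the alpha subunit of beta-hexosaminidase, which with the cofactor encoded by Gm2a splits gangliosides, was at 361 and 432 CPM in NICcA and at 493, 566 and 605 CPM in wild type. Its log2 fold change was -0.48 (SE 0.15, edgeR adjusted p = 0.30), and Gm2a itself had one of -0.20 (SE 0.12), also without overlap.

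The other sphingolipid genes overlapped between the genotypes. Asah1 (acid ceramidase), Smpd1 (acid sphingomyelinase) and Arsa (arylsulfatase A, which acts on sulfatide) stood at a log2 fold change of -0.27 (SE 0.15), -0.20 (SE 0.12) and -0.070 (SE 0.14). Glb1, the beta-galactosidase used as a marker of senescent cells, was the gene with the widest spread. It was at 67.5 and 61.9 CPM in NICcA and at 99.1, 42.6 and 30.8 CPM in wild type, so that both NICcA libraries fell within the wild type range. The highest wild type library was 3.22 times the lowest, and the log2 fold change of 0.17 had a standard error of 0.47. It was 0.82 without wild type replicate 1 and -0.13 without wild type replicate 3. Over the 9 genes of the class, 8 had a negative log2 fold change, 7 without scaling factors, and the median was -0.27.

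**Figure D4:**
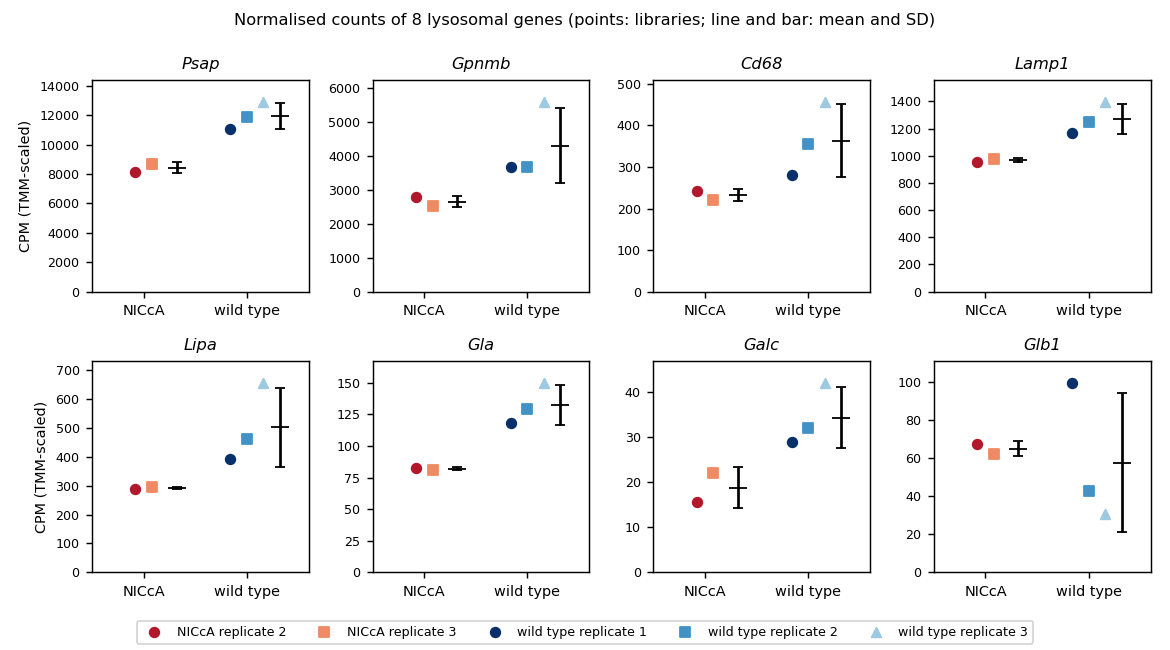
Normalised counts (CPM, axes from 0) of 8 lysosomal genes in each library, NICcA at the left and wild type at the right of each panel; black marks give the mean and SD. In 7 panels both NICcA points lie below all wild type points, and in the Glb1 panel they lie between wild type replicates 1 and 2.

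In all 4 genes of sterol and phospholipid handling, both NICcA libraries lay below the wild type libraries, where 18.5% of all genes tested did so. In RPKM, Npc2 overlapped, at 226 in NICcA replicate 2 and 216 in wild type replicate 1. Lipa, the acid lipase that frees cholesterol and fatty acids from lipoproteins taken up, was at 289 and 295 CPM in NICcA and at 391, 462 and 654 CPM in wild type. The NICcA libraries were close together while the wild type libraries differed by 1.67 times. The log2 fold change was -0.78 (SE 0.23, edgeR adjusted p = 0.30), and without wild type replicate 3, the highest library, it was -0.55. Its DESeq2 adjusted p was 0.041, in a range from 0.041 to 0.90 over the alternative fits.

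Npc1 and Npc2, the membrane and the soluble protein that pass cholesterol out of the lysosome, were both lower in the NICcA libraries. Npc1 was at 185 and 197 CPM in NICcA and at 231, 257 and 282 CPM in wild type (log2 fold change -0.43, SE 0.13, edgeR adjusted p = 0.30). Npc2 was at 867 and 713 CPM in NICcA and at 869, 985 and 924 CPM in wild type (log2 fold change -0.23, SE 0.14, edgeR adjusted p = 0.46). For Npc2, NICcA replicate 2 all but met wild type replicate 1, so the absence of overlap rests on a small margin. Whether the fold changes of the pair differ from each other was not tested. Pla2g15, the lysosomal phospholipase, had a log2 fold change of -0.19 (SE 0.11, edgeR adjusted p = 0.42), with levels of 221 ± 5.29 CPM in NICcA and 252 ± 12.3 CPM in wild type.

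All 7 membrane proteins had a negative log2 fold change, with a median of -0.40, where 49.5% of all genes tested had a negative one. For 5 of them both NICcA libraries lay below all wild type libraries, where 18.5% of all genes tested did so. Gpnmb was at 2776 and 2531 CPM in NICcA and at 3660, 3662 and 5577 CPM in wild type. The log2 fold change was -0.70 (SE 0.23, edgeR adjusted p = 0.32), and -0.46 without wild type replicate 3, which stood far above the other wild type libraries. Ctsk, a protease gene of osteoclasts, moved with that library, at 81.0 and 106 CPM in NICcA and at 160, 259 and 569 CPM in wild type, while Calcr and Oscar, other osteoclast markers, had at most 7 counts in any library. The 4 of 6 osteoclast markers tested summed to 282 to 346 CPM in NICcA and 329 to 756 CPM in wild type, but the other 3 had positive log2 fold changes, and the median of the 4 was 0.12. Ocstamp was at 21.5 and 10.2 CPM in NICcA and at 4.51, 2.91 and 1.41 CPM in wild type (log2 fold change 2.43, SE 0.52, edgeR adjusted p = 0.27; DESeq2 adjusted p = 0.00054), lowest in wild type replicate 3, while Dcstamp and Acp5 were at 0.21 (SE 0.33) and 0.031 (SE 0.16). The part of such cells in the result was not tested. Cd68, the macrophage relative of the LAMP proteins, was at 242 and 221 CPM in NICcA and at 280.2, 354 and 455 CPM in wild type (log2 fold change -0.65, SE 0.22, edgeR adjusted p = 0.32).

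Lamp1 and Lamp2, which make up much of the protein of the lysosomal membrane, had tight NICcA values. Lamp1 was at 956 and 976 CPM in NICcA and at 1169, 1251 and 1392 CPM in wild type (log2 fold change -0.40, SE 0.13, edgeR adjusted p = 0.32). Lamp2 was at 318 and 308 CPM in NICcA and at 433, 373 and 460 CPM in wild type (log2 fold change -0.43, SE 0.13, edgeR adjusted p = 0.30), and its second transcript row had the same log2 fold change to 2 decimals. Scarb2, the receptor that carries beta-glucocerebrosidase to the lysosome, was the fifth gene without overlap (log2 fold change -0.27, SE 0.12). In RPKM it overlapped, at 50.1 in NICcA replicate 3 and 48.0 in wild type replicate 3. Mcoln1, the lysosomal calcium channel with a palindrome in its promoter, and Laptm5 overlapped between the genotypes, at -0.22 (SE 0.14) and -0.15 (SE 0.17) in log2 fold change. Laptm5 was at 546 and 409 CPM in NICcA and at 473, 532 and 579 CPM in wild type, and the NICcA libraries lay on either side of most wild type values.

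**Figure D5:**
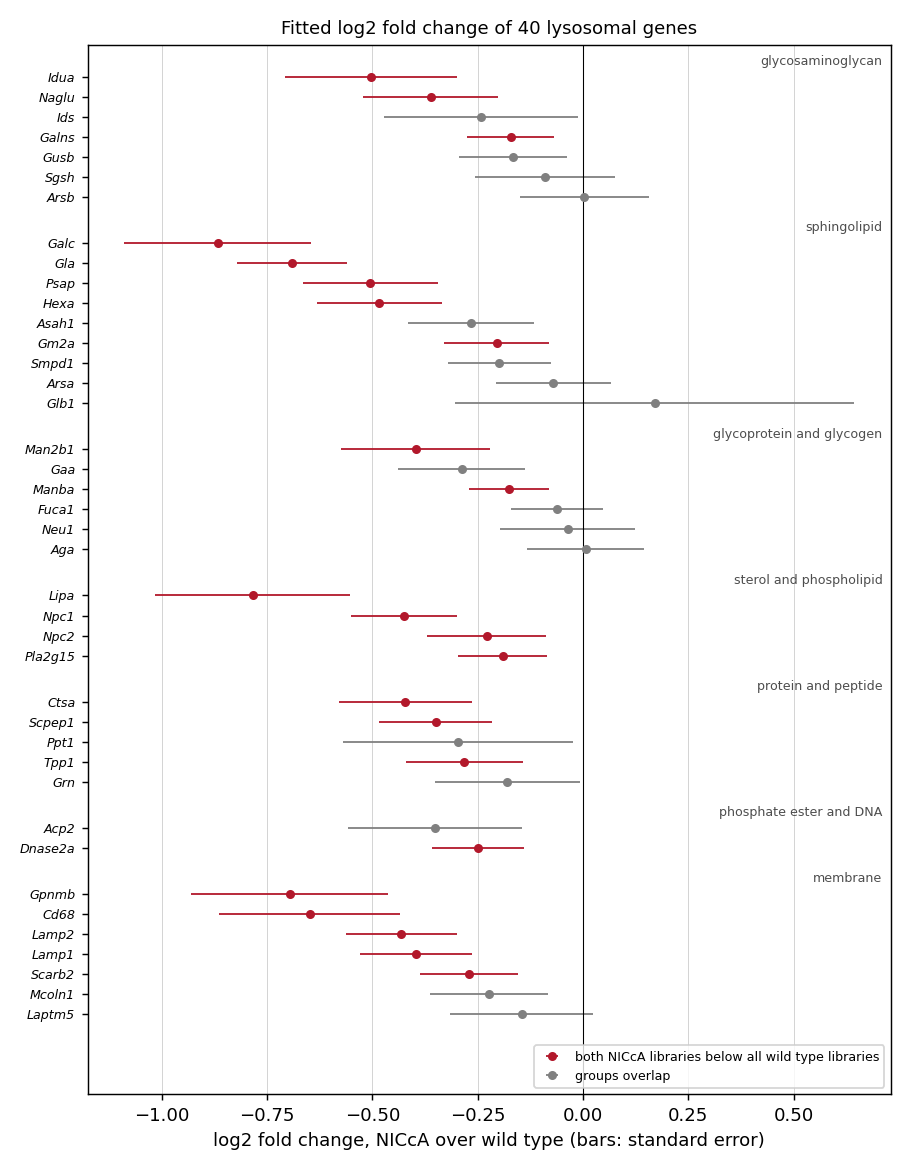
Fitted log2 fold change (NICcA over wild type) with its standard error for the 40 lysosomal genes, grouped by substrate; red marks the 23 genes with both NICcA libraries below all wild type libraries. All 7 membrane genes and all 4 sterol and phospholipid genes lie left of 0, and Glb1 has the widest bar (SE 0.47).

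Among the 5 genes of protein and peptide breakdown all had negative values, with a median of -0.30. Both NICcA libraries lay below all wild type libraries for 3 of them, where 18.5% of all genes tested did so. Ctsa, the carboxypeptidase that also shields Glb1 and Neu1 from degradation, was at 778 and 778 CPM in NICcA and at 873, 1111 and 1142 CPM in wild type (log2 fold change -0.42, SE 0.16, edgeR adjusted p = 0.33). Scpep1, a related serine carboxypeptidase, was at 126 and 120 CPM in NICcA and at 144, 148 and 179 CPM in wild type (log2 fold change -0.35, SE 0.13, edgeR adjusted p = 0.34). Tpp1, the tripeptidyl peptidase of a neuronal ceroid lipofuscinosis, had a log2 fold change of -0.28 (SE 0.14). Ppt1, which removes palmitate from proteins, differed as much within the genotypes as between them, at 187 and 275 CPM in NICcA and at 294, 352 and 204 CPM in wild type. Grn, which encodes progranulin, was at 694 and 737 CPM in NICcA and at 683, 788 and 962 CPM in wild type, an overlap, with a log2 fold change of -0.18 (SE 0.17, edgeR adjusted p = 0.63).

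The enzymes of glycosaminoglycans lay closer to 0, with a median of -0.17 over 7 genes. Both NICcA libraries lay below all wild type libraries for 3 of them, where 18.5% of all genes tested did so. Idua, the iduronidase of Hurler syndrome, was at 12.9 and 13.7 CPM in NICcA and at 23.9, 16.6 and 16.0 CPM in wild type (log2 fold change -0.50, SE 0.20, edgeR adjusted p = 0.34). Here wild type replicate 1, not replicate 3, was the high one, and without it the log2 fold change was -0.29. Naglu, which cleaves N-acetylglucosamine from heparan sulfate, was at 111 and 116 CPM in NICcA and at 120.1, 168 and 149.9 CPM in wild type (log2 fold change -0.36, SE 0.16, edgeR adjusted p = 0.36). Gusb, the beta-glucuronidase and the most abundant gene of the class, overlapped, at 348 and 398 CPM in NICcA and at 381, 436 and 438 CPM in wild type (log2 fold change -0.17, SE 0.13, edgeR adjusted p = 0.55).

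Galns, a sulfatase of keratan sulfate, had a log2 fold change of -0.17 (SE 0.10) without overlap. Ids (iduronate sulfatase), Sgsh (heparan sulfamidase) and Arsb (arylsulfatase B) overlapped, at -0.24 (SE 0.23), -0.091 (SE 0.17) and 0.0032 (SE 0.15) in log2 fold change. Arsb was at 7.19 and 6.75 CPM in NICcA and at 7.77, 6.58 and 6.53 CPM in wild type, with no order between the groups.

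Enzymes of glycoprotein sugars and glycogen had the median nearest to 0, at -0.12 over 6 genes. Both NICcA libraries lay below all wild type libraries for 2 of them, where 18.5% of all genes tested did so. Man2b1, the lysosomal alpha-mannosidase, was at 717 and 881 CPM in NICcA and at 936, 990 and 1232 CPM in wild type (log2 fold change -0.40, SE 0.18, edgeR adjusted p = 0.36). Manba, the beta-mannosidase, had the smallest standard error of the 40 genes and a log2 fold change of -0.17 (SE 0.095), at 86.4 and 92.5 CPM in NICcA and at 101, 98.9 and 103 CPM in wild type. Gaa, the acid glucosidase that degrades glycogen and is deficient in Pompe disease, was at 39.6 and 36.9 CPM in NICcA and at 38.7, 51.2 and 50.004 CPM in wild type, an overlap made by wild type replicate 1 (log2 fold change -0.29, SE 0.15, edgeR adjusted p = 0.40). Fuca1 (fucosidase), Neu1 (sialidase) and Aga (aspartylglucosaminidase) overlapped, at -0.062 (SE 0.11), -0.036 (SE 0.16) and 0.0067 (SE 0.14) in log2 fold change.

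The last pair acts on phosphate esters and DNA. Dnase2a, the nuclease that digests the DNA of engulfed cells, was at 94.8 and 96.8 CPM in NICcA and at 105, 123 and 113 CPM in wild type (log2 fold change -0.25, SE 0.11, edgeR adjusted p = 0.36), without overlap. Acp2, a lysosomal acid phosphatase, was at 84.9 and 69.0 CPM in NICcA and at 79.9, 91.8 and 123 CPM in wild type (log2 fold change -0.35, SE 0.21, edgeR adjusted p = 0.45), with overlap.

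Other genes of the same organelle were read from lists. The lists were chosen with earlier results of these data known and are no separate support. Of 25 further lysosomal hydrolases 17 had a negative log2 fold change (median -0.19), of 21 further membrane proteins 17 (median -0.16), of 10 cathepsins 9 (median -0.56), of 18 V-ATPase subunits, which pump protons into the lysosome, 14 (median -0.24), and of 12 genes of hydrolase maturation and delivery 10 (median -0.16). With edgeR 0 of these genes passed in either direction, at an unadjusted p below 0.05 the 5 lists held 9, 7, 8, 5 and 2 genes lower and 0 higher, and DESeq2 called 5, 3, 4, 5 and 0 lower and 0 higher. Over all genes tested, 49.5% had a negative log2 fold change, 6.83% were lower at that unadjusted p and 1.94% were called lower by DESeq2. Without scaling factors the median of all genes moved to 0.11, and 35.5% of all genes tested were negative. The negative ones of the 5 lists then numbered 16, 12, 8, 12 and 8. Their medians were -0.081, -0.052, -0.45, -0.13 and -0.048. Smpdl3a, a phosphodiesterase related to Smpd1, had a log2 fold change of -0.89 (SE 0.20, edgeR adjusted p = 0.27), and Hpse, the heparanase, one of -0.49 (SE 0.10, edgeR adjusted p = 0.27). Atp6v0d2 and Atp6v1c1, the pump subunits with the smallest p, were at -0.82 (SE 0.15, edgeR adjusted p = 0.27) and -0.63 (SE 0.12, edgeR adjusted p = 0.27). The cathepsins Ctsd, at 6171 and 6018 CPM in NICcA and 7982, 10256 and 10018 CPM in wild type, and Ctsh were at -0.63 (SE 0.18, edgeR adjusted p = 0.29) and -0.45 (SE 0.11, edgeR adjusted p = 0.28). Among membrane proteins, the tetraspanin Cd63 and the amino acid transporter Slc36a1 were at -0.56 (SE 0.13, edgeR adjusted p = 0.28) and -0.53 (SE 0.12, edgeR adjusted p = 0.27). Igf2r and Sort1, receptors that sort new hydrolases to the lysosome, were at -0.51 (SE 0.19) and -0.52 (SE 0.17) in log2 fold change, with an edgeR adjusted p of 0.33 and 0.32.

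The factors that bind the CLEAR element were lower in NICcA without overlap in all 4 cases, where 18.5% of all genes tested were so. With edgeR, 0 of the 4 passed the adjustment. Mitf was at 73.4 and 73.1 CPM in NICcA and at 106, 114 and 164 CPM in wild type (log2 fold change -0.80, SE 0.21, edgeR adjusted p = 0.28; DESeq2 adjusted p = 0.020). Tfeb was at 45.4 and 50.03 CPM in NICcA and at 50.9, 75.5 and 63.6 CPM in wild type (log2 fold change -0.41, SE 0.18, edgeR adjusted p = 0.36). Tfe3 and Tfec were at a log2 fold change of -0.29 (SE 0.11, edgeR adjusted p = 0.33) and -0.14 (SE 0.10, edgeR adjusted p = 0.52). For Tfeb and Tfec the absence of overlap rests on small margins. Tfec was at 77.6 CPM in NICcA replicate 2 and at 79.5 CPM in wild type replicate 3. Its log2 fold change without scaling factors was -0.038. TFEB and TFE3 are controlled largely by moving in and out of the nucleus, which transcript counts do not show.

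Markers of other cells that the cultures could hold were read in the same way. Dendritic cell markers (8 of 8 tested) had a summed level of 663 to 1007 CPM in NICcA and 723 to 924 CPM in wild type, with a median log2 fold change of 1.08. Most of the sum was Itgax, at 805 and 551 CPM in NICcA and at 661, 808 and 848 CPM in wild type. Both NICcA libraries lay above all wild type libraries for 5 of the 8, where 18.3% of all genes tested did so. The 2 with a negative log2 fold change were Clec9a (-1.14) and Itgax (-0.19). Neutrophil and promyelocyte markers (7 of 7 in the table tested) summed to 86.6 to 106 CPM in NICcA and 46.1 to 85.3 CPM in wild type, with Mpo at 0 counts in NICcA replicate 2. Progenitor markers (Kit, Cd34 and Gata2) summed to 35.4 to 39.5 CPM in NICcA and 7.94 to 26.5 CPM in wild type. Within wild type they were highest in replicate 1, the wild type library nearest to NICcA for the lysosomal genes. Of the T cell and B cell markers (3 each), none had more than 48 counts in any library. The fibroblast collagens were near 0 in all libraries but wild type replicate 1. The part of these cells in the lysosomal values was not tested.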

How the data were processed

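Macrophages grown from the marrow of NICcA and wild type mice were sequenced as total RNA on an Illumina machine. The submitters' notes on processing list Bowtie 0.12.2 and build mm8 without a role; how reads were counted, and with which strand setting, is not given in the sources used here, and reads of overlapping genes cannot be told apart. The authors deposited read counts and RPKM values for 27457 transcript rows, per the file headers. A second deposited table repeats the RPKM; in the 51 rows of the 40 genes, 0 values differed at a relative tolerance of 1e-05.

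Groups follow the labels. The whole table was fitted in R 4.3.3 by edgeR 4.0.16, using TMM scaling, filterByExpr and glmQLFTest, with a single genotype term, and p-values were adjusted by Benjamini-Hochberg over all rows tested, at a threshold of 0.05. The scaling and the test were also run on simulated counts for the top row of each gene. The planted log2 changes were all larger in size than those of the lysosomal genes. The simulation therefore cannot show whether shifts of their size would be found. The standard error is the size of the log2 fold change divided by the root of F. CPM are per 1000000 TMM-scaled counts; RPKM carry no TMM scaling and serve to compare genes. Each gene is its row with the highest mean count, since isoform rows share reads.

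Alternatives were other scaling factors and filters, another edgeR dispersion setting, DESeq2 1.42.0, limma 3.58.1 (voom, or log2 RPKM with a pseudocount of 1 or 0.1), other choices of row, a replicate block and leaving out single libraries. The rule for per-library values took, in each class, the 2 smallest p and the highest mean RPKM, with 10 genes always included. Manba, Ppt1, Laptm5 and Arsb were shown per library after their values were seen. Il12b, Cd86, Il6, Ptgs2, Nos2, Dcstamp, Acp5 and the collagens were named after theirs. The members and lists were chosen with earlier results of these data known. Figures were drawn with matplotlib 3.10.9.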

Additional observations from a re-analysis of the deposited data

How the results depend on the processing

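Over 18 alternative settings, 32 of the 40 genes kept the sign of their log2 fold change, and 688 of 720 values kept both sign and side of the threshold. DESeq2 called 4 genes where edgeR called 0. The number of genes lower in NICcA lay between 33 and 39. The median log2 fold change was -0.16 without scaling factors, -0.15 with limma on log2(RPKM + 1) and -0.15 on log2(RPKM + 0.1); the last 2 carry no TMM scaling, and the median over all genes was then 0.062 and 0.11. With 1 library left out it lay between -0.31 and -0.23.

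The sign turned for 8 genes. Without scaling factors the log2 fold change was 0.017 for Sgsh, 0.038 for Arsa, 0.045 for Fuca1 and 0.070 for Neu1. With limma on log2(RPKM + 1) it was 0.014, 0.046, 0.053 and 0.087 for the same genes, and on log2(RPKM + 0.1) it was 0.018, 0.051, 0.053 and 0.090. Arsb turned to -0.00045 with the top row of each gene alone in the fit, and Aga to -0.0018 with limma-voom. With 1 library left out, the log2 fold change lay between -0.27 and 0.068 for Sgsh, -0.045 and 0.094 for Arsb, -0.13 and 0.82 for Glb1, -0.14 and 0.044 for Arsa, -0.14 and 0.14 for Aga, -0.13 and 0.11 for Neu1, and -0.37 and 0.049 for Laptm5. The cause was not tested.

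Replicate numbers are shared by 2 pairs, and nothing states that they pair the libraries. Across genes, deviations from the group means correlated at 0.21 for replicate 2 and 0.13 for replicate 3. The crossed pairs gave -0.13 (NICcA 2 with wild type 3) and -0.21 (NICcA 3 with wild type 2). The deviations of 2 NICcA libraries mirror each other, so these values are not separate checks of pairing. With the replicate block 0 of the 40 genes were called, 38 were lower, the median was -0.29 and Aga turned to -0.038; over all genes the number called was 0, against 4 without the block. With a NICcA library left out, the lone one is assumed to vary like the wild type libraries.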
